A study of Homo sapiens with 14 samples.

Results

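Knockdown of SRC-1 without tamoxifen was measured in LY2 cells, an endocrine-resistant line obtained from MCF-7 breast cancer cells, which need estrogen to grow. The comparison held 8 of the study's 14 arrays, chosen by their titles: 4 with an siRNA against SRC-1 and 4 with a scrambled control siRNA, both untreated and each numbered 1 to 4. An SRC1-siRNA array and the control array of the same number form a pair, and a pair difference is SRC1 siRNA minus control siRNA on the log2 scale, where 1 is a 2-fold change. All cells had been grown with 10 nM 4-hydroxytamoxifen, the active form of the anti-estrogen tamoxifen, and then for 72 hours without it. They were transfected with 40 nM siRNA using siPORT Amine, and 24 hours later received ethanol (0.01%) for 2 hours as the vehicle. The other 6 arrays came from cells given 100 nM 4-hydroxytamoxifen in place of ethanol, 4 with control siRNA (numbers 1 to 4) and 2 with SRC1 siRNA (numbers 1 and 3). LY2 is a single line, and each siRNA was represented by 1 product. The labels call the replicates biological and do not say what a number stands for, so p-values measure only the spread between these arrays.

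SRC-1, encoded by NCOA1, is a coactivator that nuclear receptors such as the estrogen receptor bring to their target genes. Interferons are secreted proteins that cells make after sensing viral nucleic acids. Beta and lambda interferons signal through JAK kinases, and many antiviral genes that respond carry the interferon-stimulated response element (ISRE) in their promoters. Genes of MHC class II, which present peptides to T cells, are usually confined to immune cells but can be switched on in epithelial cells, mainly by interferon gamma.

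Each array gave a log2 signal for 54613 probe sets, groups of short probes that each stand for a transcript. The median signal of the 8 arrays lay between 3.44 and 3.49, and the lower quartile of all their values was 2.19, near the floor where differences are compressed. Arrays have no read depth, and their number limits the precision. The mean over the 4 arrays of number 1 and that of number 3 differed by an SD of 0.0408 over probe sets, against 0.113 that independent arrays of this spread would give, and the means of numbers 2 and 4 (3 arrays each) by 0.0529 against 0.123. The numbers were thus closer to each other than their arrays, and the sources used here state no step that evens them out. With such a step, a low control level beside a high knockdown level of the same number, and the reverse, would follow by construction. Levels are therefore to be read within a number. Ranks of arrays and a lack of overlap across numbers, where given below, are descriptions only. A shift common to a number cancels in the pair difference, whereas a rescaling by number would change its size, which was not tested. The luminal epithelial markers EPCAM, GATA3 and ESR1 were bright on every array (EPCAM from 12.92 to 13.03). Of 14 measured immune cell markers 11 were below the median signal in both groups, as were 10 of 12 fibroblast markers and 8 of 10 endothelial markers.

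The promoters of 5 genes are printed because their ISRE content differs and because their changes differed among pairs in the ways described below. Each line gives 250 bases before the RefSeq start of the gene (GRCh38.p14), in the direction of transcription. Capitals mark the ISRE core (GAAA, any 2 bases, GAAA) or the kappa-B form (GGGA, any 2 bases, TTCC), each searched on both strands. The windows are IFIT1 (chr10:89392373-89392622, plus strand), IFI44L (chr1:78620198-78620447, plus strand), CXCL10 (chr4:76023498-76023747, minus strand), CD74 (chr5:150412911-150413160, minus strand) and VANGL2 (chr1:160400314-160400563, plus strand).
IFIT1: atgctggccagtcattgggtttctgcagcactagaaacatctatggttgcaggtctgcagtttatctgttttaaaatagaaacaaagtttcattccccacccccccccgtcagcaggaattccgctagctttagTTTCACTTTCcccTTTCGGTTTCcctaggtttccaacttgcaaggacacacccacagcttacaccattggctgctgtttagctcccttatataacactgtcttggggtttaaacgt
IFI44L: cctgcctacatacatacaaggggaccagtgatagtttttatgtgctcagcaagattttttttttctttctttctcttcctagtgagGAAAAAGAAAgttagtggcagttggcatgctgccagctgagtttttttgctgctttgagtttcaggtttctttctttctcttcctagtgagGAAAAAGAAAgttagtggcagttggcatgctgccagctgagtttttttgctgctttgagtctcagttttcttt
CXCL10: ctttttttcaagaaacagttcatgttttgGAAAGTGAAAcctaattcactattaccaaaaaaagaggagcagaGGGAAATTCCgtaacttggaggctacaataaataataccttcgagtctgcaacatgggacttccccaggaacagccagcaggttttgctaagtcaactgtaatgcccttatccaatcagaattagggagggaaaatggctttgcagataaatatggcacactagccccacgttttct
CD74: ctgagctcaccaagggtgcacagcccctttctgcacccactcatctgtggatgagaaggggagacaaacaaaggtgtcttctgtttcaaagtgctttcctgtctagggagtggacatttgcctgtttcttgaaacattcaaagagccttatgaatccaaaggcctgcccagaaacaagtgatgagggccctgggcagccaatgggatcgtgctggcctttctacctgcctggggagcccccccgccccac
VANGL2: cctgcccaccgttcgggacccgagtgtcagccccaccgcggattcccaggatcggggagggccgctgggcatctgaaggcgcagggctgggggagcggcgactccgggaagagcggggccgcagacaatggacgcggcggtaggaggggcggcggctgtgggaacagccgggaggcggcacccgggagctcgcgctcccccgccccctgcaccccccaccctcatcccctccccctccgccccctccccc
IFIT1 and IFI44L each hold 2 ISRE cores, CXCL10 holds 1 ISRE core and 1 kappa-B form, and CD74 and VANGL2 hold neither in this window. A match is a description of the letters, not evidence that a factor binds there.

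The target was lower in every pair. Averaged over its 4 probe sets, NCOA1 differed by -0.80, -1.60, -2.00 and -0.79 in pairs 1 to 4, a mean of -1.30 ± 0.60 (SD, n = 4 pairs). An exact two-sided sign-flip test gave p = 0.125, the smallest that 4 pairs allow. On the brightest probe set the control arrays read 11.14, 11.52, 11.37 and 11.18 and the SRC1-siRNA arrays 10.32, 9.96, 10.01 and 10.54. The groups did not overlap, and the fall was deeper in pairs 2 and 3 than in pairs 1 and 4. The mean change of that probe set was -1.10 ± 0.16 (± limma SE, limma adjusted p = 0.00776), and all 4 probe sets passed at 0.05. Without the arrays of number 2 it was -0.94 (adjusted p = 0.0717) and without those of number 3 -1.01 (adjusted p = 0.0685). One of the other NCOA1 probe sets, with differences of -0.75, -1.81, -1.97 and -0.78, passed the test that the change differs among pairs (limma F adjusted p = 0.0488).

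Across all probe sets, 2154 changed after knockdown (3.94%), 1078 higher and 1076 lower (1.97% of those tested in each direction, limma with the replicate number as a term, adjusted p below 0.05), for 727 and 730 genes. Nearly all of these calls held their direction in each pair: 1076 of the 1078 rises and 1068 of the 1076 falls had the same sign 4 times. Over all probe sets tested, 24.4% had the same sign in all 4 pairs. Rises were larger than falls, with 327 rises and 47 falls of at least 2-fold by the mean. The count fell most without the arrays of number 2 or 3: 41 probe sets passed without number 2, 33 without number 3, 679 without number 1 and 1841 without number 4. Without the replicate number as a term, the block that pairs the arrays, 5653 passed (10.4%), among them 2148 of the 2154. With only the 8 untreated arrays fitted, 1027 passed, among them 914 of the 2154.

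At least 2-fold in every pair, 99 probe sets were higher (0.181%), 8 of them with no or several symbols and the rest for 70 named genes, and 2 were lower (0.00366%). Tamoxifen in control-siRNA cells, measured the same way over 4 pairs, gave 0 such probe sets. Of the 99, 96 passed the knockdown test. The other 3 were those of CXCL10, TRIM22 and IFNL2, all of which passed the test of differing pairs. At 4-fold in every pair 16 probe sets remained, all higher. Just inside the 2-fold limit were the Notch ligands JAG1 and DNER, with weakest pairs of 1.0 and 1.01. Just outside were GBP1 (0.99), HLA-G (0.99) and IL6 (0.97). Of the 70 genes, 31 were on the immune lists used here, 3 on other lists and 36 on none. All lists together held 566 of the 19775 genes with named probe sets, and were chosen with earlier results of these data known. Leaving out number 4 raised the count to 247 probe sets, 227 higher and 20 lower.

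CCL5, a chemokine that draws T cells, had the largest weakest-pair change of all named genes. Its control arrays read 5.86, 7.14, 7.47 and 6.58 and its SRC1-siRNA arrays 12.31, 11.29, 11.33 and 11.24. The lowest knockdown array stood far above the highest control array. The mean change of CCL5 was 4.78 ± 0.43 (limma SE, adjusted p = 0.00238). Here and below, the ± of a mean change is the SE of the limma fit, which also holds the tamoxifen arrays. It is not the spread of the 4 pair differences, whose SD for CCL5 was 1.16. Pair 1 was the largest (F adjusted p = 9.18e-04), and on another CCL5 probe set the differences were 7.10, 5.37, 4.09 and 2.91, with pair 4 the smallest. PLAAT4, a phospholipid-modifying enzyme also called retinoic acid receptor responder 3, read 7.10, 7.91, 8.19 and 7.54 in control cells. After knockdown it read 12.33, 11.60, 11.26 and 11.28, a change of 3.93 ± 0.30 (adjusted p = 0.00177). Its change also differed among pairs (F adjusted p = 0.0316), with pair 1 the largest. In both genes the groups did not overlap. Control 1 was the lowest and SRC1 siRNA 1 the highest array, an order that an evening of the numbers would give by construction when pair 1 is the largest. HCP5, a non-coding RNA gene of the MHC region, differed by 3.40, 2.62, 2.50 and 2.36 (mean 2.72 ± 0.24, adjusted p = 0.00238), and its pairs did not pass the test of differing sizes (F adjusted p = 0.291). HLA-DMB, which loads peptides onto MHC class II, differed by 4.18, 2.51, 2.32 and 3.16 (mean 3.04 ± 0.28, adjusted p = 0.00238). It missed the F test (F adjusted p = 0.0639), but its change was larger in pair 1 than in the others (limma adjusted p = 0.0419). These 4 genes and the lower LOC100506730 were the 5 of 30 repeated genes named by rule that passed both without number 2 and without number 3.

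The group also held genes of other roles. CCND2, a cyclin that drives cells out of G1, read 2.72, 3.37, 4.02 and 3.57 in control cells and 6.59, 6.38, 6.25 and 5.52 after knockdown. Controls 1 and 2 lay below the median signal, where changes are compressed. The groups stood apart by more than the spread within either, with a mean change of 2.77 ± 0.36 (adjusted p = 0.00680), or 0.79 as the mean of the gene's probe sets. CEACAM1, a cell adhesion molecule, differed by 5.08, 2.74, 2.35 and 2.55 on its named probe set. APOL1, a secreted lipoprotein component that kills trypanosomes, differed by 4.63, 2.08, 1.82 and 2.19. On these probe sets pair 1 lay well above the other 3, while another CEACAM1 probe set graded from 4.67 and 3.44 to 1.97 and 1.64 (F adjusted p = 0.0595). CCL22, a chemokine for regulatory T cells, differed by 4.51, 3.45, 3.24 and 1.81. GRB10, an adaptor of insulin receptor signalling that was named after its values were seen, differed by 3.45, 2.40, 2.25 and 1.48 on its most repeated probe set.

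**Figure D1:**
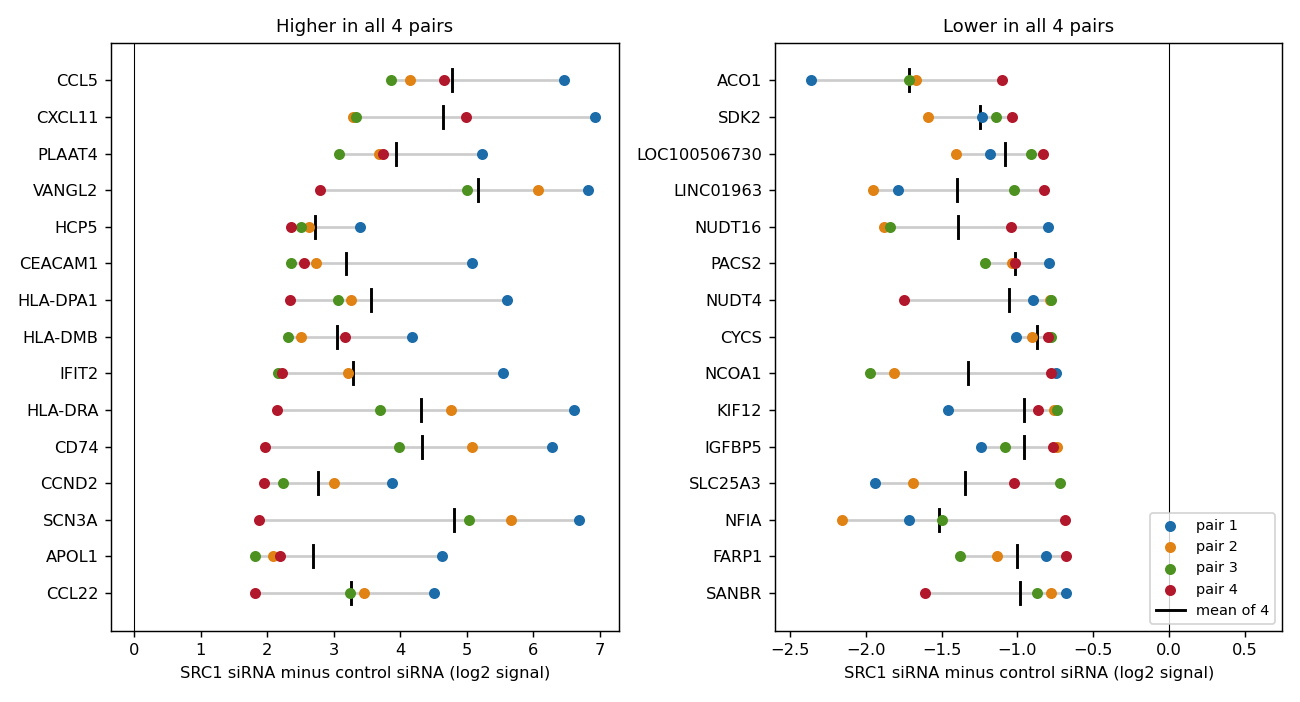
Pair differences (x axis, SRC1 siRNA minus control siRNA, log2 signal) of 30 genes, the 15 rises and 15 falls with the largest weakest-pair change; each point is a pair, the black bar is the mean of 4, and the grey line spans the pairs. The rises spread over several log2 units with pair 1 (blue) mostly the largest, and the falls are smaller, from -2.36 to -0.68.

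Falls were shallow and repeated. ACO1, cytosolic aconitase, which doubles as an iron-regulatory protein, read 5.0, 4.64, 4.89 and 4.75 in control cells and 2.64, 2.97, 3.18 and 3.65 after knockdown. The groups did not overlap (mean -1.71 ± 0.20, adjusted p = 0.00630, or -0.84 as the mean of its probe sets), and 3 of the 4 knockdown arrays read below the median signal, where the change is compressed. SDK2, a synaptic cell adhesion protein, read 6.91, 6.95, 6.80 and 7.00 in control cells and 5.68, 5.36, 5.66 and 5.96 after knockdown. Its control arrays lay close together, the groups did not overlap, and its mean change was -1.25 ± 0.12 (adjusted p = 0.00238), or -0.49 as the mean of its probe sets. ACO1 and SDK2 were the 2 genes at least 2-fold lower in every pair, although only 2 of the 3 brighter SDK2 probe sets were lower in all 4.

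The next falls by their weakest pair were those of LOC100506730 (-1.18, -1.41, -0.91 and -0.83), LINC01963 (-1.79, -1.95, -1.02 and -0.83) and NUDT16, a nucleotide hydrolase (-0.80, -1.88, -1.84 and -1.04). For NUDT16 only 1 of 4 brighter probe sets was lower in all 4 pairs, and for PACS2, a sorting protein, 2 of 4. CYCS, cytochrome c, had little spread between pairs: it differed by -1.01, -0.91, -0.78 and -0.80 (mean -0.87 ± 0.12, adjusted p = 0.00739). FARP1, a guanine exchange factor, fell on all 4 of its brighter probe sets. Its named probe set read 5.10, 5.32, 5.31 and 5.31 in control cells and 4.29, 4.19, 3.93 and 4.63 after knockdown (mean -1.0 ± 0.13, adjusted p = 0.00681). IGFBP5, which binds insulin-like growth factors, was lower in all 4 pairs on 5 of 6 brighter probe sets (named probe set -0.96 ± 0.12, adjusted p = 0.00680). As means of the gene's probe sets these changes were smaller, at -0.33 for NUDT16, -0.46 for PACS2, -0.49 for CYCS, -0.62 for FARP1 and -0.63 for IGFBP5. NUDT4, which fell by 1.05 on the log2 scale on its named probe set, did not pass as the mean of the gene's probe sets (-0.27, adjusted p = 0.0709). KIF12, a kinesin, did not pass without number 1 (-0.79, adjusted p = 0.0567).

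Whether the size of the change differed among pairs was tested with a moderated F test in a model that takes its residual from the tamoxifen arrays of the same numbers. The model also fits those arrays, so its estimate of the change at a number is not the untreated pair difference alone. Each difference of a pair from the others given below with a ± is this estimate and its SE. For numbers 2 and 4 a single SRC1-siRNA array exists, so a feature of that array and a feature of the number cannot be told apart. In all, 288 probe sets passed (0.527%), for 200 genes, and 267 of them had a mean change above 0. The change was highest in pair 1 for 177 and in pair 4 for 106, and in pairs 2 and 3 for 3 and 2. Among probe sets past the knockdown test, 12.8% of the rises and 0.465% of the falls also passed. At mean changes of 1 to 2 in size, 56 of 227 rises and 3 of 47 falls passed, and the median range over pairs was 1.42 and 1.06. A miss of this test does not show that the pairs were alike. The count was 138 without number 1 and 148 without number 4.

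**Figure D2:**
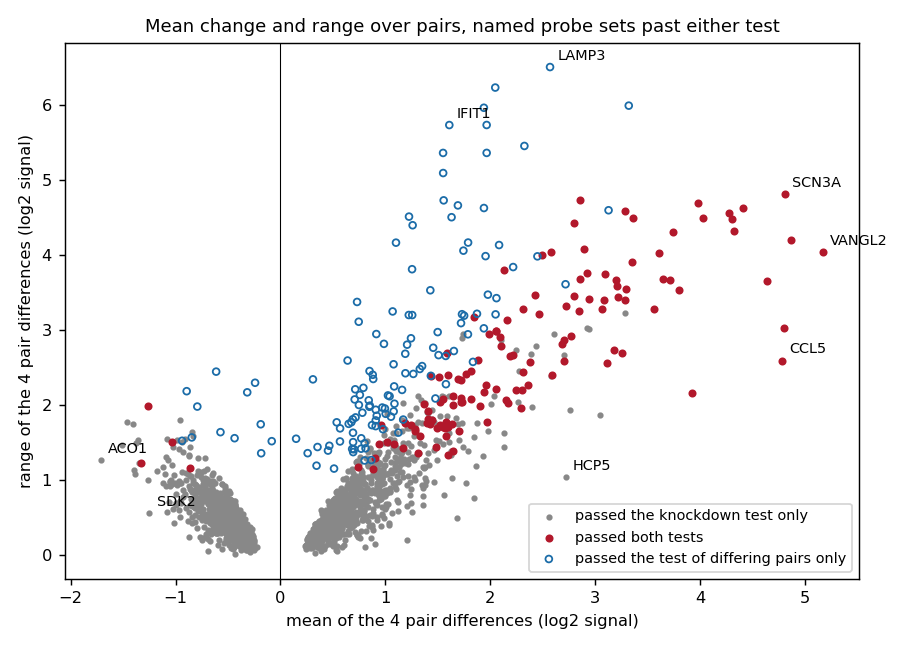
Mean of the 4 pair differences (x axis, log2 signal) against their range (y axis, log2 signal) for probe sets with 1 gene symbol that passed either test. Points that passed only the test of differing pairs (open blue) reach the widest range, that of LAMP3, while CCL5 and HCP5 have large means with smaller ranges.

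Pair 4 stood apart in both directions, and many of its larger changes were in genes of the interferon response. Against the mean of the other 3 pairs, its change differed for 215 probe sets (0.394%), larger for 108 (0.198%) and smaller for 107 (0.196%), for 76 and 80 genes. Of the 76 genes with a larger change, 29 were on the list of 36 interferon response genes and 30 on no list. Of the 80 with a smaller change, 2 were on that list and 62 on no list. IFIT1, which binds foreign RNA, read 11.99, 12.28, 12.32 and 9.76 in control cells and 12.49, 12.41, 12.36 and 15.53 after knockdown. The 2 arrays of number 4 lay at opposite ends of all 8, and the other 6 arrays lay between 11.99 and 12.49. The 6 brightest probe sets of untreated SRC1 siRNA 4 were those of IFIT1, IFIT2, IFIT3, XAF1, IFI44 and HERC6. They read from 15.53 down to 14.46, whereas the highest value of any probe set on any other array was 14.28. Whether a rescaling of number 4 contributed was not tested. By the model's estimate for IFIT1, pair 4 exceeded the others by 5.30 ± 0.20 (SE, limma adjusted p = 1.1e-05). The mean change of IFIT1 did not pass the knockdown test (1.61 ± 0.82, adjusted p = 0.338). IFI44L, an interferon-induced protein, read 10.29, 10.51, 10.65 and 7.97 in control cells and 11.31, 11.02, 10.87 and 14.41 after knockdown. It had the same pattern, with control 4 lowest and SRC1 siRNA 4 highest (difference of pair 4 from the others 5.85 ± 0.19, adjusted p = 7.4e-06). LAMP3, a lysosomal membrane protein, differed by 2.79, 0.40, 0.29 and 6.79, and TRIM22, an antiviral ubiquitin ligase, by 3.73, 1.17, 1.23 and 7.15. In these 2 genes pair 1 also lay above pairs 2 and 3.

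Most of the list had the pattern of these genes. Its members were chosen with earlier results of these data known, so it is not independent support. Over all probe sets, dim ones included, 1.97% passed the knockdown test in each direction and 0.527% the F test. In every pair 11.9% were higher, and these shares also stand beside the lists below. Of the 36 interferon response genes 9 were higher and 0 lower past the knockdown test. Of the same genes 33 were higher in every pair, and 32 passed the test of differing pairs. Their median change was 1.31, against -0.0038 over all probe sets, and 1.01, 0.29, 0.18 and 3.20 in pairs 1 to 4. Without number 4 the median was 0.54. The 4 members that missed the F test were IFITM2, IFITM3, MX1, an antiviral GTPase, with 1.83, 1.05, 1.05 and 1.52 (mean 1.36 ± 0.16, adjusted p = 0.00602), and BST2, which tethers virus particles. The change was larger in pair 4 for 29 members and smaller for 2: EPSTI1 (3.43, 2.81, 1.51 and 0.45) and the exonuclease ISG20 (4.53, 2.65, 1.95 and 1.67). IRF9, an interferon regulatory factor, differed by 0.25, 0.17, 0.17 and 1.68. Of 13 JAK-STAT genes 2 were higher past the knockdown test (JAK2 and SOCS1), and 2 passed the F test (IRF9 and IRF1).

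**Figure D3:**
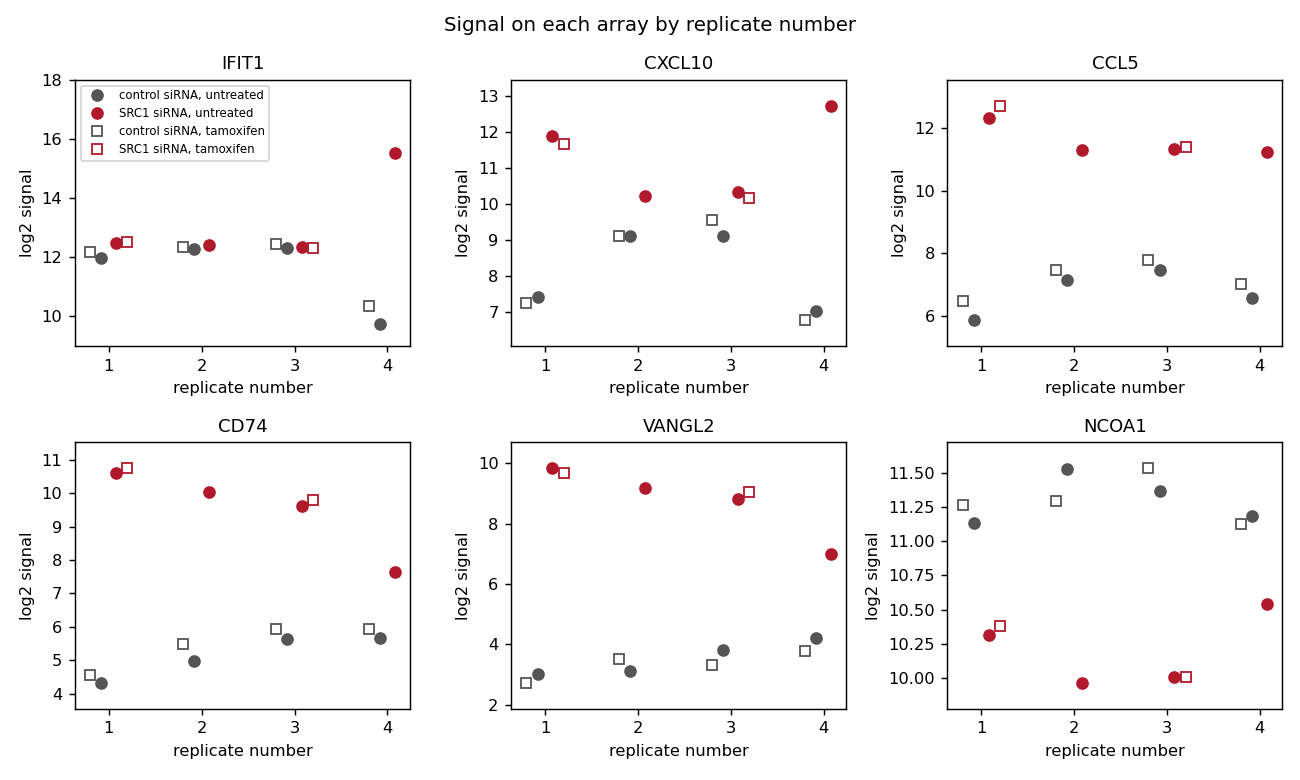
Signal on each array (y axis, log2) by replicate number (x axis) for 6 genes, with filled points for untreated and open squares for tamoxifen-treated cells, grey for control and red for SRC1 siRNA. IFIT1 separates mainly at number 4, CXCL10 most at numbers 1 and 4, CCL5 at every number, CD74 and VANGL2 least at number 4, and NCOA1 is lower after knockdown at every number.

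CXCL10, an interferon-induced chemokine whose promoter holds both motifs, read 7.42, 9.09, 9.12 and 7.01 in control cells. After knockdown it read 11.89, 10.21, 10.32 and 12.73. It was high after knockdown at numbers 1 and 4 and the groups did not overlap, but the mean change of 3.13 ± 0.81 did not pass with the replicate block (adjusted p = 0.0603) and did without it (adjusted p = 0.0179). CXCL8, the neutrophil chemokine interleukin 8, had the same order, with 4.37, 1.29, 1.58 and 5.88, and passed (adjusted p = 0.0321). The interferon genes themselves shared it in part. IFNB1 read 4.66, 6.46, 7.08 and 5.32 in control cells and 11.11, 9.13, 8.84 and 10.36 after knockdown, high at numbers 1 and 4. IFNL1, a lambda interferon, differed by 5.16, 2.09, 1.58 and 5.60 (mean 3.61 ± 0.69, adjusted p = 0.0189). IFNA2 had no such spread (1.10, 1.16, 1.30 and 1.26), from a control level near the floor. Of 8 interferon ligand genes measured, 5 were higher and 0 lower past the knockdown test, and 5 passed the F test. Alpha interferon genes are near-identical copies, so their probe sets may cross-hybridise.

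Sensors of viral nucleic acids divided between these patterns. Of 16 sensor and adaptor genes 3 were higher past the knockdown test (DHX58, ZBP1 and AIM2) and 5 passed the F test (RIGI, IFIH1, DHX58, TLR3 and NLRC5). RIGI, a cytoplasmic RNA sensor, read 10.72, 11.18, 11.41 and 9.99 in control cells and 12.07, 11.63, 11.42 and 13.20 after knockdown. Its groups met at number 3, where the pair differed by 0.01, while pair 4 differed by 3.21. TLR3, an endosomal receptor for double-stranded RNA, was instead largest in pair 1, with 4.54, 0.88, 0.56 and 1.83.

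For 6 of 12 MHC class II genes the change was smaller in pair 4. CD74, the invariant chain, read 4.32, 4.97, 5.63 and 5.66 in control cells and 10.60, 10.04, 9.62 and 7.63 after knockdown. The groups did not overlap, yet SRC1 siRNA 4 was the lowest array of its group, and pair 4 fell short of the other 3 by a difference of -3.10 ± 0.15 (adjusted p = 4.9e-05). Its mean change of 4.33 was 2.38 as the mean of its probe sets. HLA-DRA, a class II alpha chain, differed by 6.61, 4.77, 3.70 and 2.15 (mean 4.31 ± 0.66, adjusted p = 0.00939). Of 12 class II genes 8 were higher and 0 lower past the knockdown test and 4 passed the F test. Their median was 3.39, 2.47, 2.15 and 0.69 in pairs 1 to 4, with a mean change of 2.29 at the median gene, or 1.20 when a gene's probe sets were averaged. HLA genes share sequence, so their probe sets may read several of them. Immune cells express these genes. The summed linear signal of the 14 immune cell markers was 501.7 to 661.0 on control arrays and 395.8 to 521.7 on SRC1-siRNA arrays, 0 of 14 passed, and PTPRC, CD3D and CD14 read between 2.12 and 2.64 on all 8. In bulk RNA, more cells with a transcript and more of it per cell cannot be told apart.

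Genes of other functions shared that order. VANGL2, a planar cell polarity protein, read 3.01, 3.11, 3.82 and 4.21 in control cells and 9.84, 9.17, 8.82 and 7.01 after knockdown. Controls 1 and 2 lay below the median signal, where changes are compressed, so the sizes are approximate. Pair 4 was smaller than the others by a difference of -3.02 ± 0.29 (adjusted p = 0.0026), and the groups did not overlap. It was the only one of 15 planar cell polarity genes past the knockdown test. The complement genes CFB (5.88, 3.76, 3.76 and 1.57) and C3 (4.12, 3.74, 3.02 and 1.57) and the G-protein regulator RGS2, named after its values were seen (4.34, 3.64, 3.39 and 0.94) were also smallest in pair 4. BTK, a kinase of B cells, differed by 5.09, 3.19, 2.78 and 0.36 from control levels at the floor.

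**Figure D4:**
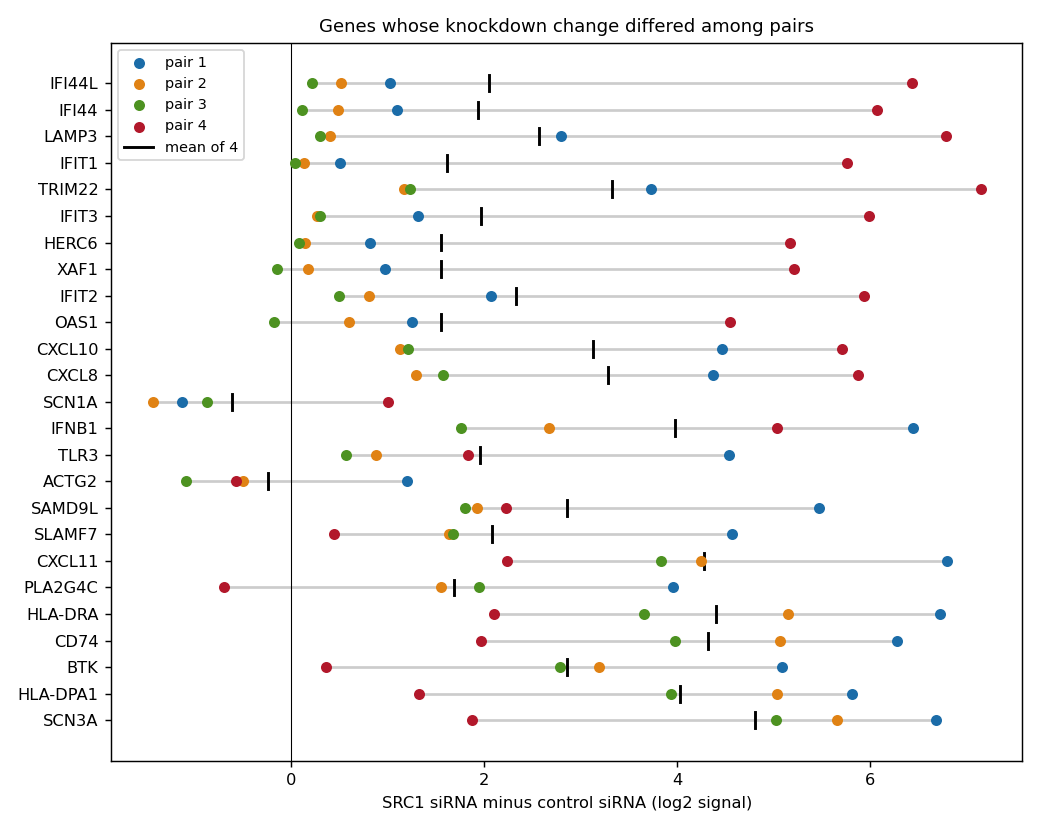
Pair differences (x axis, log2 signal) of the genes named for changes that differed among pairs, ordered by the difference of pair 4 from the other 3; each point is a pair and the black bar is the mean. Antiviral genes at the top have pair 4 (red) far to the right, and MHC class II genes, BTK and SCN3A at the bottom have pair 4 at the left end.

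Motif content differed between these groups of genes. The ISRE core was found in 43.8% of the genes with a larger change in pair 4 (28 of 64 with a promoter in the table) and in 8.3% of those with a smaller change in pair 4 (5 of 60). It was present in 25.5% of the genes at least 2-fold higher in all 4 pairs (12 of 47) and in 3.1% of all 27305 promoters of that length. The kappa-B form was found in 9.4%, 5.0% and 17.0% of the same 3 groups and in 1.4% of all promoters. In all, 15 promoters held both motifs and in 0 did they overlap. Among genes past the knockdown test the ISRE core was in 7.7% of the higher and 1.7% of the lower ones. These shares are descriptions, and the genes were grouped by their values.

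Pair 1 was the largest for most genes that varied. Its change differed from the mean of the others for 249 probe sets (0.456%), larger for 232 (0.425%) and smaller for 17 (0.0311%). Of the 175 genes with a larger change in pair 1, 56 also had a smaller change in pair 4 and 17 a larger one. SAMD9L, an antiviral protein, differed by 5.47, 1.92, 1.80 and 2.23 on its named probe set, and SLAMF7, a surface receptor of lymphocytes, by 4.57, 1.63, 1.68 and 0.45. CD274, the immune checkpoint ligand PD-L1, named here after its values were seen, read 4.96, 6.20, 6.61 and 6.19 in control cells and 9.02, 7.67, 7.73 and 7.03 after knockdown. Its groups did not overlap, with control 1 lowest and SRC1 siRNA 1 highest, and its mean change did not pass (1.87 ± 0.52, adjusted p = 0.0786). Pairs 2 and 3 rarely stood out upward: pair 2 differed for 26 probe sets (0.0476%), larger for 1 (0.00183%) and smaller for 25 (0.0458%), and pair 3 larger for 0 and smaller for 71 (0.13%). Over all probe sets, the difference between pairs 1 and 3 correlated weakly between treated and untreated arrays (r = 0.213, over probe sets of arrays that share the number, with no test).

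Probe sets of a gene did not always share a pattern. CXCL11, a chemokine for activated T cells, differed by 6.93, 3.29, 3.34 and 4.99 on one probe set and by 6.80, 4.25, 3.83 and 2.24 on another. IFIT2, an antiviral protein, differed by 5.55, 3.21, 2.15 and 2.23 on one probe set and by 2.07, 0.81, 0.49 and 5.94 on another. For both genes the rank of pair 4 depended on the probe set, while every difference was above 0.

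On the other immune lists, most chemokines and cytokines rose and several varied among pairs. A place on these lists does not put a gene outside the interferon response. Of 21 chemokine and cytokine genes 14 were higher and 0 lower past the knockdown test, and 8 passed the F test. CXCL2, a neutrophil chemokine, differed by 1.72, 1.90, 1.41 and 1.72 (mean 1.69 ± 0.29, adjusted p = 0.0127), the narrowest range among the chemokines named here. CXCL1 differed by 2.24, 1.30, 1.58 and 2.61, and tumour necrosis factor (TNF) by 1.51, 1.55, 1.05 and 0.86 (mean 1.24 ± 0.13, adjusted p = 0.00415). Of 13 NF-kappa-B factors and feedback genes 6 were higher, 0 lower and 1 passed the F test. That gene was TNFAIP3, a ubiquitin-editing inhibitor of the pathway, with 2.26, 1.27, 1.57 and 0.83 on its brightest probe set. Another of its probe sets differed by 2.71, 1.42, 1.54 and 2.86, so pair 4 was smallest on the first and largest on the second. NFKBIA, the inhibitor I-kappa-B alpha, differed by 1.02, 0.82, 0.32 and 0.53 (mean 0.67 ± 0.14, adjusted p = 0.0265). Of 15 genes of MHC class I and antigen processing, which displays peptides on all cells, 10 were higher, 15 had the same sign in every pair and 3 passed the F test. HLA-E differed by 1.48, 0.80, 0.64 and 0.72, and B2M, the shared light chain, by 0.53, 0.30, 0.39 and 0.80.

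**Figure D5:**
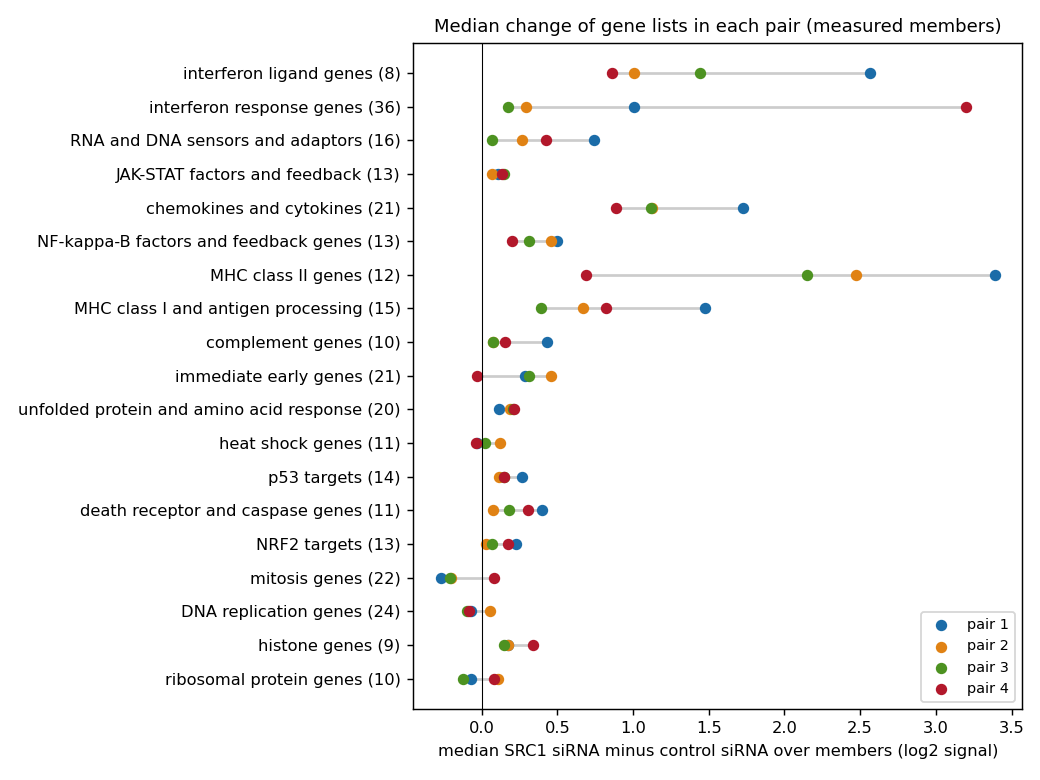
Median pair difference (x axis, log2 signal) over the measured members of 19 gene lists (y axis, number of members in brackets), with a point for each pair. Interferon response genes reach 3.20 in pair 4 and 0.18 in pair 3, MHC class II genes run from 3.39 in pair 1 to 0.69 in pair 4, and the stress and proliferation lists lie between -0.27 and 0.46.

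Some falls were absent from pair 4. Of the genes whose change was larger in pair 4, 13 were lower in pairs 1 to 3, and 11 of these were above 0 in pair 4. IGF1R, the receptor of insulin-like growth factor 1, read 8.17, 8.10, 7.86 and 7.17 in control cells and 6.97, 7.33, 7.59 and 8.14 after knockdown. The groups overlapped, since number 4 ran opposite to the other 3 (pair 4 above the others by 1.68 ± 0.15, adjusted p = 0.0015). GFRA1, a co-receptor for glial-derived neurotrophic factor, differed by -1.55, -1.48, -2.00 and -0.02, and its mean of -1.26 ± 0.25 passed (adjusted p = 0.0223). SCN1A, a sodium channel, differed by -1.13, -1.44, -0.88 and 1.0. ACTG2, smooth muscle gamma actin, differed by 1.20, -0.50, -1.10 and -0.57, with pair 1 the exception. COL27A1, a fibrillar collagen named after its values were seen, differed by -0.62, -0.36, -0.35 and -3.01 on one probe set, whose mean did not pass (adjusted p = 0.142). Another of its probe sets, with -1.06, -1.13, -0.58 and -0.50, passed (adjusted p = 0.0252) and had no such step in pair 4.

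The counts of list members in this paragraph stand beside 1.97% of all probe sets past the knockdown test in each direction. Of all probe sets 11.9% were higher in every pair. Among 25 genes known to be induced by estrogen, PKIB and EGR3 rose and 0 fell. TFF1, a classic estrogen target, differed by 0.06, 0.05, -0.02 and 0.06. Among 15 nuclear receptor coregulators NCOA1 and TRIM24 fell (TRIM24 by 0.55, 0.91, 0.84 and 0.41 on the log2 scale in pairs 1 to 4) and NCOA7 rose. None of these 3 passed the F test on its brightest probe set. Of 16 genes reported as SRC-1 dependent 2 were higher (CSF1 and ERRFI1) and 3 lower (ADAM22, POU3F2 and the neurotrophin receptor NTRK2 , with -0.58, -1.28, -0.85 and -0.61). Of 21 neuronal differentiation genes 2 were higher (MAP2 and SYT1) and 6 lower, including NCAM1, a neural adhesion molecule, with -0.88, -1.0, -0.41 and -0.71 (adjusted p = 0.0116). NFIA and NFIB, 2 of the 4 nuclear factor I genes, also fell, NFIB by 0.48, 0.40, 0.39 and 0.32 on the log2 scale. Of 22 mitosis genes, 24 DNA replication genes and 10 ribosomal protein genes 0 passed in either direction. Of 9 histone genes H3C2 and H2BC5 were higher and 0 lower, with 7 higher in every pair and a median of 0.27. Where 1.97% of all probe sets were higher past the knockdown test, stress lists had 0 falls and 1 to 4 rises each. These were 4 of 21 immediate early genes (ATF3, EGR3, KLF4 and MCL1), 3 of 20 unfolded-protein response genes (PPP1R15A, VLDLR and CEBPB), 2 of 14 p53 targets (CDKN1A and PMAIP1), 2 of 11 death receptor and caspase genes (CASP4 and CFLAR), 2 of 13 NRF2 targets (HMOX1 and AKR1B10) and 1 of 11 heat shock genes (DNAJB4). ATF3, a stress-induced transcription factor, differed by 2.95, 1.44, 0.94 and 0.88 and was the one of these that passed the F test. CASP4, an inflammatory caspase, differed by 1.92, 1.01, 0.56 and 1.81 (mean 1.32, adjusted p = 0.0111).

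With tamoxifen, most of the repeated changes were also present in the arrays of numbers 1 and 3. Of the 99 probe sets at least 2-fold higher in every untreated pair, 84 were at least 2-fold higher in both tamoxifen pairs, and both lower probe sets were at least 2-fold lower there. The same share over all probe sets was not counted. The 99 were chosen by large rises in untreated pairs that include numbers 1 and 3, so the count is a description only. CCL5 differed by 6.23 and 3.60 in tamoxifen pairs 1 and 3, against 6.45 and 3.86 without tamoxifen. ACO1 differed by -2.07 and -1.32, against -2.36 and -1.72. The treated arrays carry the same replicate numbers, and the labels do not state whether they share cultures with the untreated ones.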

How the data were processed

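RNA of LY2 cells was amplified with a NuGEN Ovation kit, labelled with biotin and hybridised to a whole-transcriptome Affymetrix array, per the labels' protocols. The authors deposited log2 signals, whose base was inferred from their range. No background correction or normalization is stated in labels or headers, and R 2.9.2 is the single tool in the submitters' processing notes. All 54613 probe sets other than 62 controls were analysed. Of these, 41091 had 1 gene symbol, 1801 several and 11721 none, and 41037 symbols were updated by gene ID.

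Groups came from the titles. All 14 arrays were fitted in limma 3.58.1 (statmod 1.5.0, R 4.3.3) with 4 group means and the replicate number as a term (7 residual degrees of freedom), two-sided, with Benjamini-Hochberg adjustment over all probe sets and a threshold of 0.05. The second model, also fitted to all 14 arrays, had the knockdown change per number, treatment and siRNA by treatment (4 residual degrees of freedom). It gave the moderated F test (3 degrees of freedom) and each pair against the other 3. Both were run on simulated independent arrays with planted changes, without differences between numbers or an evening of them. That setting differs from these data, so it does not show how the models behave on them. The replicate block was used because the comparison is paired by number. Same-numbered arrays' deviations from the group means correlated at -0.379, -0.50, -0.449 and -0.55 for numbers 1 to 4, a negative sign that removing differences between numbers would give by construction, so the pairing rests on the titles.

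Named genes carried 1 symbol, and their higher group averaged more than 3.46, the median signal overall. They were the 15 rises and 15 falls with the largest weakest-pair change, the 15 genes past the F test with the largest range, up to 4 per direction for each pair against the others, up to 6 genes with pairs of opposite sign at 2-fold, NCOA1, list members past either test and up to 4 of smallest p per list. Other names carry that they were chosen after their values were seen, or are given as markers or as genes at a limit. The 38 lists held 627 genes, 566 measured, each by its brightest probe set. The members and lists were chosen with earlier results of these data known. Alternatives were other scalings, no replicate term, only the 8 arrays, a variance trend, array weights, a filter on dim probe sets, gene means, other fold limits and leaving out each number. The settings of the tamoxifen correlation were chosen after seeing the data.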

Additional observations from a re-analysis of the deposited data

Results flagged for a closer look

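Of 112 sets of 4 arrays checked for the named genes, 12 held an array whose gap to the nearest other exceeded Dixon's critical value for 4 samples as a share of their range. Chance gives about 1 in 20 such sets, a rate that does not apply to genes named, as these were, for large or varying changes. Of the 12, 9 were arrays of number 4 and 3 of number 1.

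Among the SRC1-siRNA arrays, number 4 stood high for the antiviral genes IFIT1 (15.53), IFIT3 (15.03), IFI44 (14.5), HERC6 (14.5), IFI44L (14.4) and XAF1 (13.1). The control array of number 4 stood low for IFIT1 (9.76) and IFI44L (7.97), and high for SANBR (7.45). SRC1 siRNA 1 stood high for the chemokine CCL5 (12.3) and the RNA receptor TLR3 (8.91), and control 1 low for FARP1 (5.10). Control and knockdown arrays of a number are tied by the closeness of the number means, so a low control array and a high knockdown array of number 4 are not separate observations.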

How the results depend on the processing

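The 2154 probe sets past the knockdown test became 5653 without the replicate block, 1027 with only the 8 untreated arrays, 1212 by gene means (fewer features tested) and 33 to 1841 when a number was left out. The 99 higher and 2 lower probe sets at least 2-fold changed in every pair became, in all, 347 at 1.5-fold, 16 at 4-fold and 105 to 247 when a number was left out. The 288 that differed among pairs became 138 to 282 when a number was left out, and the 26 of pair 2 against the others became 68 with a variance trend and robust prior. The cause was not tested. NCOA1 kept its direction and lay between -1.25 and -0.94 when a number was left out. The correlation of 0.213 between treated and untreated arrays became 0.886 over the probe sets that passed the F test, a choice made after seeing the data. That test uses the same arrays and selects probe sets whose treated and untreated arrays of a number differ little. A high value therefore follows in part from the selection and is no evidence of recurrence. The other alternatives kept these counts within 1.5 times, and none reversed a direction. Of the named genes' alternative values, 49 for the knockdown and 16 for varying sizes lost the call, and 311 and 207 kept it. The block ended 4 calls of named probe sets, with adjusted p of 0.0603 for CXCL10, 0.0741 for TRIM22, 0.118 for SLAMF7 and 0.117 for an IFIT2 probe set, against 0.0179, 0.0225, 0.0418 and 0.0430 without it. Without numbers 2 and 3, 7 and 6 of the 30 repeated genes passed. Without number 4, IFIT1, IFI44, IFI44L, IFIT3, HERC6, XAF1, OAS1, SCN3A and SCN1A no longer differed among pairs. With 4 pairs and an array floor, small changes and low levels were poorly resolved.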
